A study of Bos taurus with 9 samples.

Results

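The KLF genes (Krüppel-like factors) other than KLF17 were followed through RNA sequencing of bovine (Bos taurus) embryos cloned by somatic cell nuclear transfer, in which an enucleated egg is fused with a body cell. The rule listed 10 names, KLF2, KLF3, KLF4, KLF5, KLF6, KLF9, KLF10, KLF11, KLF13 and KLF16, and took the rows that carry them. Rows were found for 8 of the 10, among 16129 genes present in the files of all 9 libraries; KLF2 and KLF13 were not analysed here. The first group was SCNT morulae whose reconstructed embryos had received mRNA of wild-type bovine KDM6A 1 h after activation (3 libraries, KDM6A morulae). The second was SCNT morulae with no injection (3 libraries, control morulae), so injection as such was not matched in the controls. Both came from day 5 of culture and from pools of 5 embryos, with fetal fibroblasts of a single female Holstein fetus as donors. The third group was SCNT 8-cell embryos labelled as control, taken from an earlier series (3 libraries), with no pool size stated. Developmental stage and source series therefore cannot be told apart.

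KLF proteins carry zinc fingers at the carboxyl end that read GC-rich and CACCC-type DNA, and differ in the parts that recruit coactivators or corepressors. In mouse embryonic stem cells KLF2, KLF4 and KLF5 help to hold the pluripotent state, and KLF5 is needed for the mouse trophectoderm, the outer layer of the blastocyst. KLF3 represses through the corepressor CtBP, and KLF9, KLF10, KLF11, KLF13 and KLF16 repress through SIN3A, as worked out mainly in human and mouse cells. KDM6A removes methyl groups from lysine 27 of histone H3, a mark of silenced genes.

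The values are FPKM, that is, sequenced fragments divided by transcript length and by library total. The depth of the libraries is unknown, so precision rests on how far the 3 libraries in each group differ, given as an SD after ±. KDM6A itself stood at 35.65, 87.6 and 79.4 FPKM in KDM6A morulae, against 10.7, 13.9 and 10.7 FPKM in control morulae. Correlations of log2(FPKM + 1) were at least 0.973 within each group, 0.979 to 0.990 between KDM6A and control morulae and 0.822 to 0.893 between morulae and 8-cell embryos. POU5F1, SOX2 and NANOG, which mark pluripotent embryonic cells, were at or above 1 FPKM in each of the 9 libraries. Some libraries stood apart in marker genes. Control morula replicate 1 held a summed 458.6 FPKM over 10 oocyte and maternal genes, against 110.5 to 191.4 FPKM in KDM6A morulae. Control morula replicate 2 lay on the other side, with 20.6 FPKM. BTG4, the largest of these genes, was at 374, 8.35 and 90.4 FPKM in control replicates 1, 2 and 3, so replicates 2 and 3 were not alike either. In 8-cell replicate 2 the matrix gene LUM, a fibroblast marker, was at 29.1 FPKM, against 2.21 and 5.59 FPKM in the other 8-cell libraries.

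The make-up of the family differed between the morula and the 8-cell embryo. KLF4 and KLF5 led in both morula groups, while KLF4 and KLF3 led at the 8-cell stage. KLF4, KLF5, KLF10 and KLF3 were the abundant members, KLF6 and KLF11 were low, and KLF9 and KLF16 were near the floor.

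**Figure D1:**
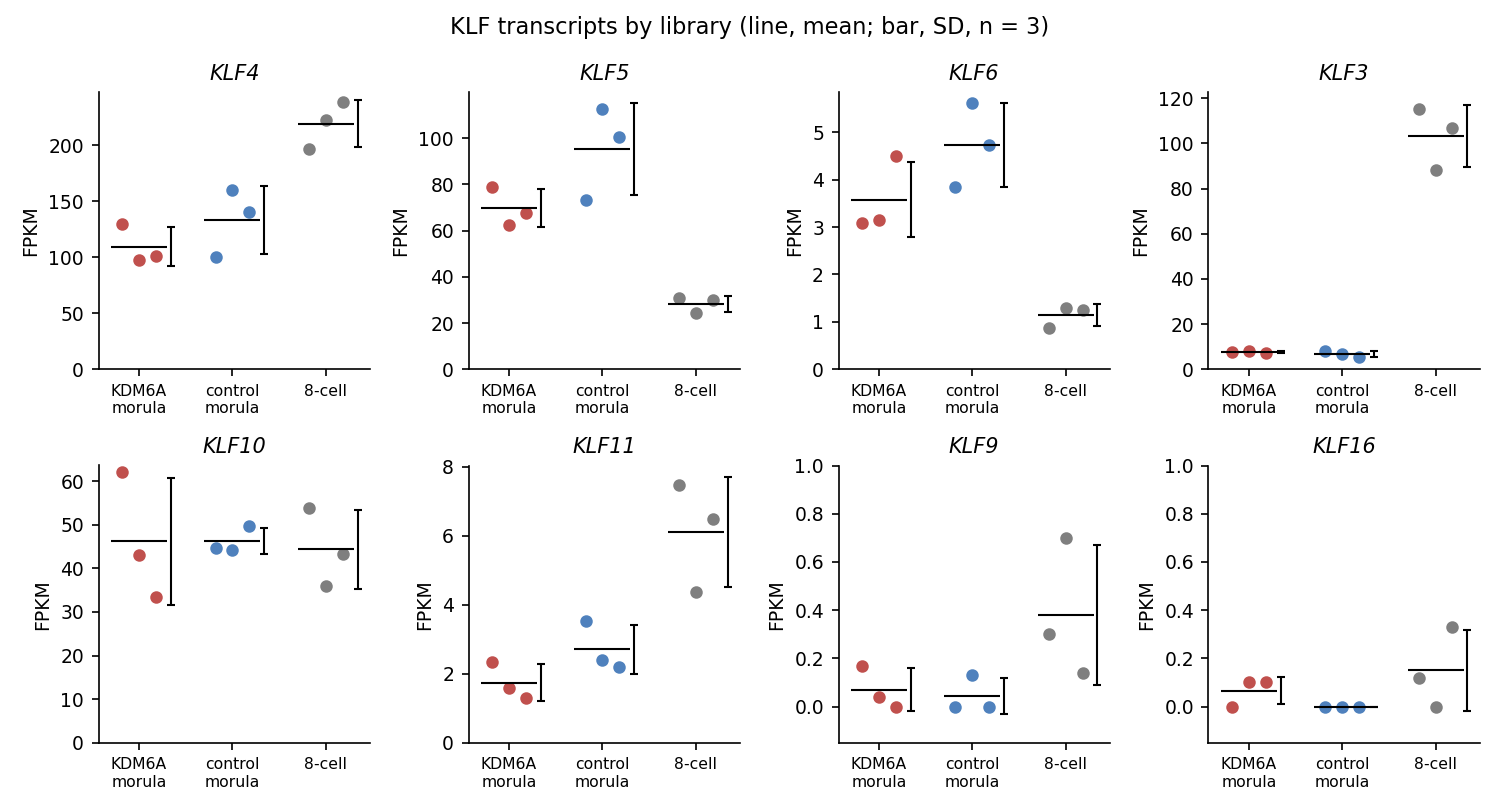
FPKM of the 8 KLF genes in each library, with groups along the horizontal axis, the mean as a line and the SD of 3 libraries as a bar beside it; each panel has its own vertical scale. KLF3 is at most 8.26 FPKM in every morula library and lies between 88.2 and 115 FPKM in 8-cell embryos, while KLF5 is lowest in the 8-cell embryos.

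KLF4 (ENSBTAG00000020355.5), a pluripotency factor of mouse and human stem cells, was the most abundant member in every library. It stood at 129, 97.6 and 101 FPKM in KDM6A morulae, at 100.1, 159.8 and 140.4 FPKM in control morulae and at 197, 223 and 238 FPKM in 8-cell embryos. All 8-cell libraries lay above all morula libraries, and the morula groups overlapped. Means were 109 ± 17.3 FPKM in KDM6A morulae, 133 ± 30.5 FPKM in control morulae and 219 ± 20.8 FPKM in 8-cell embryos (SD, n = 3 each). KLF4 exceeded 92.1% to 93.5% of genes in KDM6A morulae, 91.9% to 94.6% in control morulae and 95.6% to 96.4% in 8-cell embryos, a rank that does not depend on how libraries are scaled.

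KLF5 (ENSBTAG00000002129.5), the trophectoderm and stem cell factor, took the other direction. Its levels were 78.8, 62.6 and 67.5 FPKM in KDM6A morulae, 73.3, 112 and 100.4 FPKM in control morulae and 30.8, 24.4 and 30.03 FPKM in 8-cell embryos. Every morula library lay above every 8-cell library. The lowest control morula lay among the KDM6A morulae, so these groups overlapped. Mean KLF5 was 69.6 ± 8.27 FPKM in KDM6A morulae, 95.4 ± 20.0 FPKM in control morulae and 28.4 ± 3.51 FPKM in 8-cell embryos (SD, n = 3 each).

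KLF6 (ENSBTAG00000015188.4), a widely expressed factor known as a growth suppressor in human cells, was a low transcript. It was at 3.09, 3.15 and 4.50 FPKM in KDM6A morulae, 3.84, 5.61 and 4.73 FPKM in control morulae and 0.87, 1.30 and 1.24 FPKM in 8-cell embryos. The 8-cell files give this row no name, and it was joined by its identifier. All morula libraries were above all 8-cell libraries, with means of 3.58 ± 0.797 FPKM in KDM6A morulae, 4.73 ± 0.885 FPKM in control morulae and 1.14 ± 0.233 FPKM in 8-cell embryos.

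KLF3 (ENSBTAG00000017488.3), the CtBP-dependent repressor, showed the widest difference of the family. It was at 7.47, 8.26 and 7.17 FPKM in KDM6A morulae and at 8.2, 6.95 and 5.6 FPKM in control morulae, but at 115, 88.2 and 107 FPKM in 8-cell embryos. Means were 7.63 ± 0.563 FPKM in KDM6A morulae, 6.92 ± 1.30 FPKM in control morulae and 103 ± 13.8 FPKM in 8-cell embryos (SD, n = 3 each), or 13.5-fold lower in KDM6A morulae and 14.9-fold lower in control morulae. No morula library came near an 8-cell library. By rank, KLF3 exceeded 64.6% to 65.9% of genes in KDM6A morulae, 61.9% to 66.1% in control morulae and 92.8% to 93.6% in 8-cell embryos.

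KLF10 and KLF11, for which RefSeq gives the synonyms TIEG1 and TIEG2 (TGF-beta inducible early genes), are SIN3A-dependent repressors with unlike levels here. KLF10 (ENSBTAG00000014396.4) was at 62.1, 43.02 and 33.5 FPKM in KDM6A morulae, 44.7, 44.3 and 49.8 FPKM in control morulae and 53.95, 35.9 and 43.4 FPKM in 8-cell embryos. Its groups overlapped throughout, with the lowest and the highest value both in KDM6A morulae. KLF11 (ENSBTAG00000046218.1) was at 2.34, 1.59 and 1.29 FPKM in KDM6A morulae, 3.53, 2.41 and 2.2 FPKM in control morulae and 7.49, 4.36 and 6.50 FPKM in 8-cell embryos. The 8-cell libraries were the highest. Among morulae the highest KLF11 value was in control replicate 1, the library with the most maternal transcript. Control replicate 2, with the least, had more KLF11 than control replicate 3, and a link to maternal transcript was not tested.

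KLF9 and KLF16, smaller relatives in the SIN3A-binding branch, were below the level that was tested. KLF9 (ENSBTAG00000016229.3), known as a gene induced by glucocorticoid and thyroid hormone, was listed at 0.17, 0.04 and 0 FPKM in KDM6A morulae, at 0, 0.13 and 0 FPKM in control morulae and at 0.30, 0.70 and 0.14 FPKM in 8-cell embryos. KLF16 (ENSBTAG00000038055.2) was listed at 0, 0.10 and 0.10 FPKM in KDM6A morulae, at 0 in all 3 control morulae and at 0.12, 0 and 0.33 FPKM in 8-cell embryos. The 8-cell files leave the KLF16 row unnamed too. No fold is given for either gene.

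Within a library the members can be set side by side, since FPKM is per length. In KDM6A morulae mean levels ran KLF4, KLF5, KLF10, KLF3, KLF6 and KLF11 from high to low, with no overlap between neighbours over the 3 libraries, although the lowest KLF5 value (62.6 FPKM) and the highest KLF10 value (62.1 FPKM) nearly met. Control morulae had the same order within each library, although across libraries the values of KLF4 and KLF5 overlapped, as did those of KLF3 and KLF6. In 8-cell embryos the order was KLF4, KLF3, KLF10, KLF5, KLF11 and KLF6, again with no overlap between neighbours.

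The summed FPKM of the 8 genes was 283, 216 and 216 in KDM6A morulae, 234, 332 and 303 in control morulae and 406, 378 and 427 in 8-cell embryos. KLF4 held 45.9% ± 1.00 of the sum in KDM6A morulae, 45.8% ± 2.72 in control morulae and 54.5% ± 5.35 in 8-cell embryos (SD, n = 3 each). The share of KLF5 was 29.4% ± 1.80 in KDM6A morulae, 32.8% ± 1.30 in control morulae and 7.03% ± 0.566 in 8-cell embryos. KLF3 held 3.26% ± 0.593 in KDM6A morulae, 2.48% ± 0.897 in control morulae and 25.6% ± 2.56 in 8-cell embryos. KLF10 held 19.1% ± 3.24 in KDM6A morulae, 16.3% ± 2.89 in control morulae and 10.99% ± 2.02 in 8-cell embryos. In morulae KLF5 was the second largest part of the sum, a place that KLF3 held at the 8-cell stage.

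**Figure D2:**
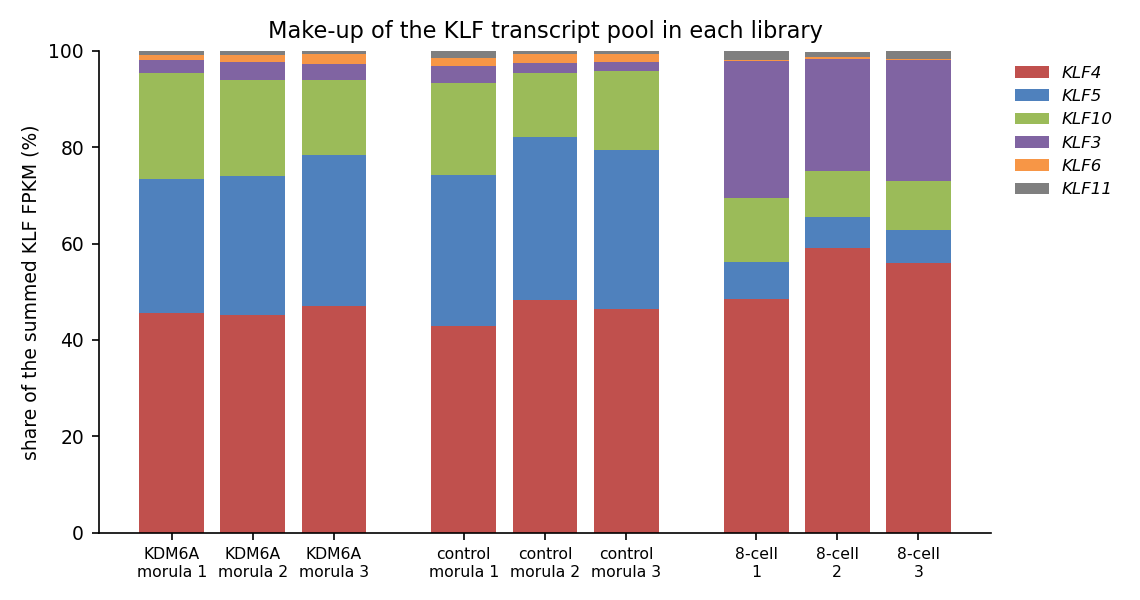
Share of each KLF gene in the summed FPKM of the 8 genes, in percent, with a bar for each library (KLF9 and KLF16 are too low to be seen). KLF3 makes up at most 3.82% of the morula bars and 23.3% to 28.4% of the 8-cell bars.

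KDM6A morulae were first compared with control morulae, embryos of the same stage with and without the injected mRNA. No KLF member was called. Of the 8 members 6 reached the filter of 1 FPKM in at least 3 of the 6 libraries and were tested with limma, on log2(FPKM + 1) across all genes and with Benjamini-Hochberg adjustment. None passed an adjusted p of 0.05 and 1, KLF5, was under 0.05 without adjustment; over all 9777 genes tested, 0.164% were called (0.123% higher and 0.0409% lower in KDM6A morulae) and 1244 were under 0.05 without adjustment. None of the 6 had groups that did not overlap, which 15.7% of all tested genes had.

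The fold changes below are log2 differences of (FPKM + 1), which understate the change of low genes. KLF5 had a log2 fold change of -0.43 (SE 0.192, 95% interval -0.86 to -0.0083, limma adjusted p = 0.384), and p = 0.2 in an exact two-sided permutation test of its own 6 values. KLF11 had -0.44 (interval -0.97 to 0.086), KLF6 -0.32 (-0.82 to 0.17), KLF4 -0.27 (-0.71 to 0.17), KLF10 -0.044 (-0.53 to 0.44) and KLF3 0.14 (-0.32 to 0.60), with adjusted p-values of 0.457 to 0.945. The median of the 6 was -0.30, with 5 below 0, beside a median of -0.012 over all genes. The intervals of KLF4, KLF5, KLF6 and KLF11 reach falls of 0.71 to 0.97, so changes of that size were not excluded at this precision. The calls stayed at 0 of 6 when any library was left out, but the sizes moved.

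With each library left out in turn, the log2 fold change ranged from -0.61 to -0.30 for KLF5, -0.46 to -0.13 for KLF4, -0.46 to -0.22 for KLF6, -0.59 to -0.29 for KLF11 and 0.012 to 0.25 for KLF3, with a smallest limma adjusted p of 0.143. Without control replicate 1, the library with the most maternal transcript, KLF5 was at -0.61 (limma adjusted p = 0.224) and KLF4 at -0.46 (limma adjusted p = 0.298). The 3 KDM6A libraries then lay below both remaining control libraries for KLF4, KLF5 and KLF6 and above them for KLF3. On these 3 against 2 libraries, 4 of 6 members did not overlap, beside 32.3% of all tested genes. This count was added after the values were seen. Control replicate 1 was the lowest control for KLF4, KLF5 and KLF6 and the highest for KLF3, so leaving it out made separation likely. The count is therefore no support for a difference. Control replicate 2, which had the most KLF4 and KLF5 and the least maternal transcript of the morulae, moved both the other way. Without it KLF4 was at -0.13 and KLF5 at -0.30. Without control replicate 3 KLF3 was at 0.012. Without KDM6A replicate 1, the injected pool with the least KDM6A transcript, 725 genes were called over the whole table, none of them a member.

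Among 6 trophectoderm markers, set beside KLF5, none was called between KDM6A and control morulae, and the median log2 fold change was -0.68, with 4 of 6 below 0. GATA3 was at 2.73 ± 0.501 FPKM in KDM6A morulae and 7.65 ± 0.66 FPKM in control morulae (limma adjusted p = 0.0561), and GATA2 at 0.643 ± 0.248 FPKM in KDM6A morulae and 2.90 ± 0.413 FPKM in control morulae (limma adjusted p = 0.0601). Neither overlapped between the groups, as was so for 15.7% of all tested genes. GATA2 passed the filter only through the control morulae. The most abundant of the 6 markers, TFAP2C, was at 173 ± 11.6 FPKM in KDM6A morulae and 167 ± 5.31 FPKM in control morulae. KRT8, KRT18 and KRT19 overlapped between the groups, with KRT19 at 5.61 ± 1.00 FPKM in KDM6A morulae and 5.29 ± 1.08 FPKM in control morulae.

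**Figure D3:**
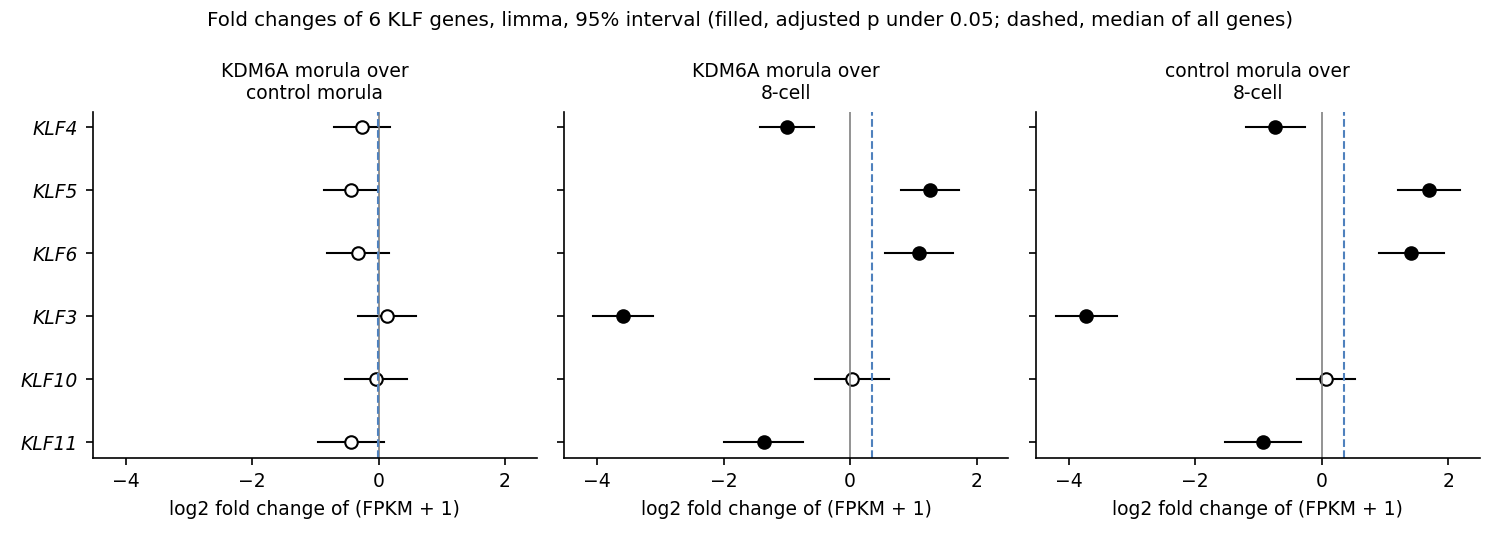
Log2 fold changes of (FPKM + 1) of the 6 tested KLF genes with 95% intervals from limma, in 3 panels for the comparisons; filled points passed an adjusted p of 0.05, and the dashed line is the median of all genes tested. No point is filled for KDM6A over control morulae, and the same 5 genes are filled on the same side of 0 in both comparisons with 8-cell embryos, which share the 8-cell libraries.

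KLF4 and KLF5 were also set against each other within a library, a measure chosen after the values were seen and unaffected by the scaling of libraries. The ratio of KLF4 to KLF5 was 1.64, 1.56 and 1.5 in KDM6A morulae, against 1.37, 1.42 and 1.40 in control morulae. The groups did not overlap, and the log2 difference was 0.17, higher in 3 of 3 KDM6A libraries, with an exact two-sided permutation p = 0.1, the smallest that 3 against 3 allows. A ratio to KLF5 without overlap was found for 18% of 9753 genes. In 8-cell embryos the ratio was 6.40, 9.14 and 7.94.

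Over the 6 morula libraries KLF4 and KLF5 were the most closely correlated members, with Pearson's r = 0.953 (exact permutation p = 0.00556) and Spearman's rho = 0.943 (exact permutation p = 0.0167). Among 15 pairs of members tested in this way, the adjusted p-values of this pair were 0.0833 and 0.25, so it did not pass. Both morula groups are pooled here, and both genes had lower means in KDM6A morulae, which can add to r. Within groups r was 0.980 in KDM6A morulae and 0.9999 in control morulae, over 3 libraries each, too few to weigh. Without the 2 libraries farthest from the median of KLF4, control replicates 2 and 3, r was 0.806 over 4 libraries. Of 9707 other genes, 0.67% were at least as strongly correlated with KLF4 over these libraries. The remaining 14 pairs had adjusted p-values of at least 0.25.

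**Figure D4:**
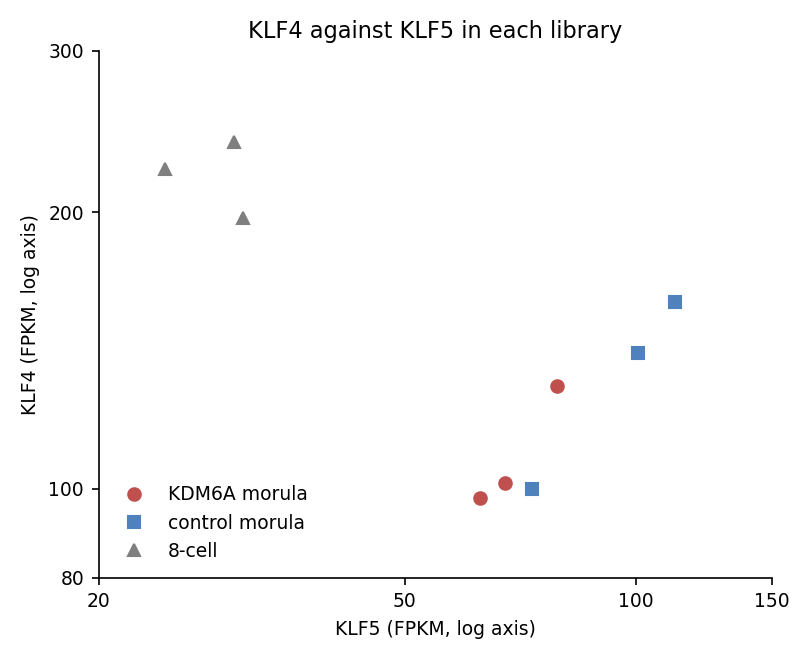
FPKM of KLF4 against KLF5 in each of the 9 libraries, on log axes. The 6 morula libraries lie along a rising line with ratios of 1.37 to 1.64, and the 3 8-cell libraries lie apart, at 197 to 238 FPKM of KLF4 and 24.4 to 30.8 FPKM of KLF5.

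Both morula groups were then compared with 8-cell embryos. In each, KLF5 and KLF6 rose and KLF3, KLF4 and KLF11 fell, and KLF10 was not called. That is 5 of 6 tested members, where 66.7% of 10024 genes were called for KDM6A morulae and 69.8% of 10048 for control morulae; the share among members is near that background. By direction, 41.1% of all genes rose and 25.6% fell in KDM6A morulae, and 42.7% rose and 27.1% fell in control morulae, beside 2 rises and 3 falls among the members. The comparisons share the 8-cell libraries, so their values are given side by side and not counted as separate support.

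KLF3 fell by 3.59 on the log2 scale in KDM6A morulae (SE 0.216, limma adjusted p = 6.41e-07) and by 3.72 in control morulae (SE 0.215, adjusted p = 1.34e-06). KLF4 fell by 1.00 in KDM6A morulae (SE 0.193, limma adjusted p = 0.00089) and by 0.74 in control morulae (SE 0.209, adjusted p = 0.00991). KLF11 fell by 1.37 in KDM6A morulae (SE 0.282, limma adjusted p = 0.00141) and by 0.93 in control morulae (SE 0.269, adjusted p = 0.0109). The control call of KLF11 was lost without control morula replicate 3, at an adjusted p = 0.0557.

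KLF5 rose by 1.26 in KDM6A morulae (SE 0.21, limma adjusted p = 0.000356) and by 1.70 in control morulae (SE 0.217, adjusted p = 8.72e-05). As ratios of mean FPKM these are 2.45-fold and 3.36-fold. KLF6 rose by 1.09 in KDM6A morulae (SE 0.246, limma adjusted p = 0.00246) and by 1.42 in control morulae (SE 0.231, adjusted p = 0.000398). Morula and 8-cell values did not overlap for these 5 members, as for 71.3% of all genes in KDM6A morulae and 74.5% in control morulae; an exact permutation test on the 6 values of each gave p = 0.1. Values for KLF10 were 0.031 (interval -0.56 to 0.62) in KDM6A morulae and 0.075 (-0.38 to 0.53) in control morulae, and its sign turned under 3 other scalings.

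Over all genes the median log2 fold change stood at 0.344 for KDM6A morulae and 0.347 for control morulae, and lay between 0.069 and 0.244 after other scalings, so the directions are relative to that shift. The 5 called members kept direction and call under all scalings tried. In pooled whole embryos a lower level in each cell and fewer cells with the transcript cannot be told apart. Maternal transcripts also differed between the morulae and the 8-cell embryos, which came from an earlier series. All 8 tested oocyte and maternal genes were lower in both morula groups, and the list summed to 110.5 to 191.4 FPKM in KDM6A morulae, 20.6 to 459 FPKM in control morulae and 3732 to 9043 FPKM in 8-cell embryos; its part in the fall of KLF3, KLF4 and KLF11 was not tested. Fibroblast markers (11 genes) summed to 45.4 to 55.0 FPKM in KDM6A morulae, 26.9 to 52.4 FPKM in control morulae and 32.1 to 75.95 FPKM in 8-cell embryos. Cumulus and granulosa markers (7 genes) summed to 2.76 to 5.88 FPKM in KDM6A morulae, 4.13 to 5.93 FPKM in control morulae and 15.3 to 26.0 FPKM in 8-cell embryos. Both cumulus genes tested fell in both comparisons: HAS2 was at 0.31 ± 0.149 FPKM in KDM6A morulae, 0.97 ± 1.11 FPKM in control morulae and 11.6 ± 7.38 FPKM in 8-cell embryos, and TNFAIP6 at 3.06 ± 1.78 FPKM in KDM6A morulae, 2.76 ± 0.368 FPKM in control morulae and 7.40 ± 1.95 FPKM in 8-cell embryos. HAS2 passed the filter only through the 8-cell libraries, so a fall was the only call open to it. INHA and PTX3 were at 0 in all 8-cell libraries, and the part of cumulus and granulosa cells in the KLF changes was not tested. The 5 calls were made as well without 8-cell replicate 2, and in the control comparison without control replicate 1.

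The remaining KLF and SP genes, which share the zinc finger type, gave no rise in morulae. Of 17 names 14 had a row and 5 were tested against 8-cell embryos, with 3 falls in KDM6A morulae and 4 in control morulae. Of all genes 25.6% fell in KDM6A morulae and 27.1% in control morulae, and 5 genes are few to set beside these shares. SP1, a general activator at GC boxes, was at 8.94 ± 0.525 FPKM in KDM6A morulae, 8.41 ± 0.269 FPKM in control morulae and 28.8 ± 2.91 FPKM in 8-cell embryos. KLF12, a CtBP-type repressor related to KLF3, was at 0.86 ± 0.229 FPKM in KDM6A morulae, 0.61 ± 0.265 FPKM in control morulae and 1.93 ± 0.177 FPKM in 8-cell embryos. KLF12 passed the filter only through the 8-cell libraries, so a fall was the only call open to it. KLF17, described in human embryos as a pluripotency factor, was at 91.7 ± 23.6 FPKM in KDM6A morulae, 46.8 ± 26.4 FPKM in control morulae and 197 ± 94.6 FPKM in 8-cell embryos, and fell in both comparisons with 8-cell embryos, with overlapping libraries in that of KDM6A morulae. SP3 was at 7.92 ± 1.90 FPKM in KDM6A morulae, 4.83 ± 0.936 FPKM in control morulae and 8.64 ± 0.409 FPKM in 8-cell embryos and fell in control morulae only (limma adjusted p = 0.0165, and 0.667 in KDM6A morulae); the difference between these was not called (adjusted p = 0.333). KLF7 was at most 1 FPKM and KLF1 and KLF15 at most 0.29 FPKM in any library.

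**Figure D5:**
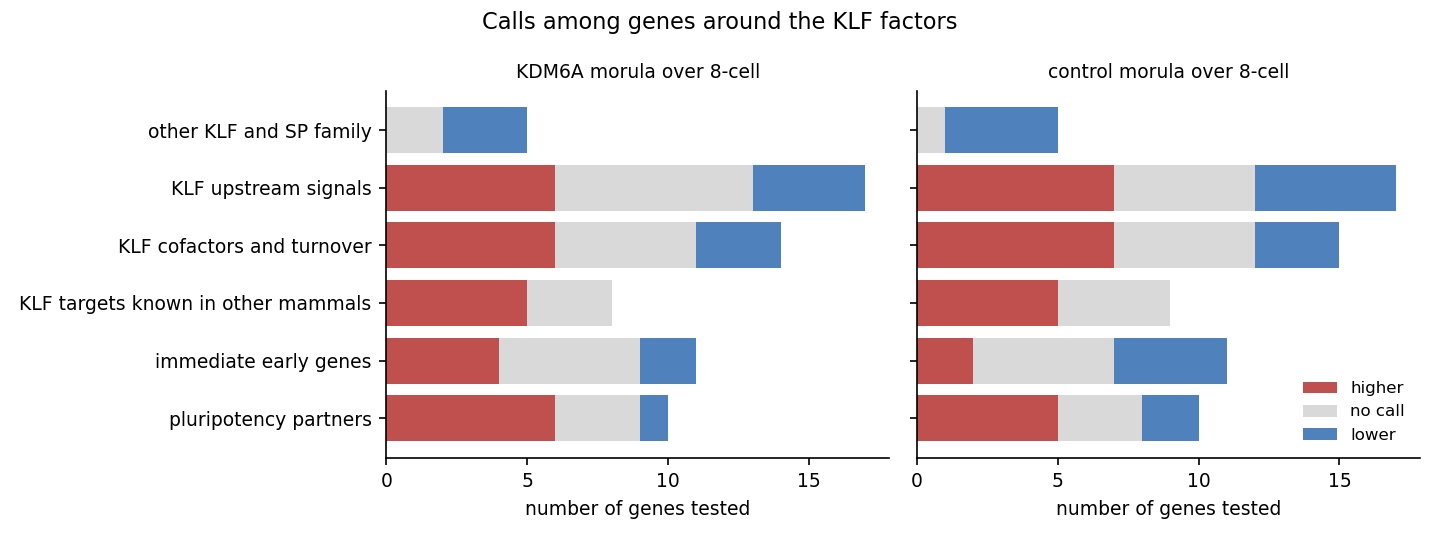
Number of genes called higher, not called or called lower in 6 lists of genes around the KLF factors, for KDM6A morulae over 8-cell embryos and control morulae over 8-cell embryos (limma, adjusted p under 0.05). Each bar is a count of few genes, to be read beside the 41.1% and 42.7% of all genes that rose and the 25.6% and 27.1% that fell. The KLF and SP relatives, with 5 tested, hold no rise, and KLF12 among them passed the filter only through the 8-cell libraries.

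Genes that act upstream of KLF factors moved in both directions. Of 17 tested, 6 rose and 4 fell in KDM6A morulae and 7 rose and 5 fell in control morulae. Of all genes 41.1% rose and 25.6% fell in KDM6A morulae, and 42.7% rose and 27.1% fell in control morulae. FOXO1, which raises KLF2 in mouse lymphocytes, was at 0.45 ± 0.239 FPKM in KDM6A morulae, 0.323 ± 0.210 FPKM in control morulae and 119 ± 34 FPKM in 8-cell embryos, and MEF2C, an activator of KLF2 in blood vessels, at 0.0933 ± 0.0777 FPKM in KDM6A morulae, 0.12 ± 0.182 FPKM in control morulae and 4.39 ± 0.866 FPKM in 8-cell embryos; both fell. MAP2K5, the kinase above the MEF2 factors, rose, at 2.43 ± 0.517 FPKM in KDM6A morulae, 3.12 ± 0.99 FPKM in control morulae and 0.0867 ± 0.0777 FPKM in 8-cell embryos. SMAD4, the shared partner in TGF-beta signalling, also rose, at 10.8 ± 1.85 FPKM in KDM6A morulae, 13.9 ± 2.26 FPKM in control morulae and 3.44 ± 0.295 FPKM in 8-cell embryos. FOXO1 and MEF2C passed the filter only through the 8-cell libraries, so they could only be called lower. MAP2K5 passed it only through the morulae and could only be called higher.

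Cofactors and the enzymes that turn KLF proteins over also split. Of 14 tested in KDM6A morulae 6 rose and 3 fell, beside 41.1% and 25.6% of all genes. Of 15 in control morulae 7 rose and 3 fell, beside 42.7% and 27.1%. WWP1, a ubiquitin ligase of KLF2 and KLF5 in human and mouse cells, was at 20.5 ± 2.80 FPKM in KDM6A morulae, 24.3 ± 3.16 FPKM in control morulae and 3.25 ± 1.08 FPKM in 8-cell embryos. FBXW7, the recognition part of another ligase that acts on KLF5, moved the other way, at 10.5 ± 1.05 FPKM in KDM6A morulae, 10.2 ± 1.78 FPKM in control morulae and 31.5 ± 1.85 FPKM in 8-cell embryos. The coactivators EP300 and CREBBP, close relatives that acetylate histones, parted: EP300 fell, at 21.2 ± 8.25 FPKM in KDM6A morulae, 13.0 ± 1.92 FPKM in control morulae and 39.5 ± 7.75 FPKM in 8-cell embryos. CREBBP rose, at 9.91 ± 0.926 FPKM in KDM6A morulae, 9.90 ± 1.85 FPKM in control morulae and 2.86 ± 0.501 FPKM in 8-cell embryos. HDAC1, a deacetylase of SIN3 complexes, rose to 156 ± 13.3 FPKM in KDM6A morulae and 163 ± 19.7 FPKM in control morulae, against 44.1 ± 9.39 FPKM in 8-cell embryos. CTBP2, the partner of KLF3, was likewise higher, at 23.1 ± 4.15 FPKM in KDM6A morulae, 31.6 ± 5.31 FPKM in control morulae and 8.82 ± 3.06 FPKM in 8-cell embryos. Between KDM6A and control morulae CTBP2 did not overlap, as was so for 15.7% of all tested genes. Its log2 fold change was -0.44, and it was not called (limma adjusted p = 0.399).

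Of genes described as KLF targets in other mammals, 5 of 8 tested rose in KDM6A morulae and 5 of 9 in control morulae, with no fall; of all genes 41.1% rose in KDM6A morulae and 42.7% in control morulae, so the counts are small and not far from that share. The keratin KRT18, found in simple epithelia, was at 34.2 ± 16.6 FPKM in KDM6A morulae, 46.6 ± 17.7 FPKM in control morulae and 0.253 ± 0.191 FPKM in 8-cell embryos, and KRT8, its pairing partner, at 10.01 ± 7.31 FPKM in KDM6A morulae, 16.9 ± 4.36 FPKM in control morulae and 0.227 ± 0.273 FPKM in 8-cell embryos. Both keratins passed the filter only through the morulae, so they could only be called higher. E-cadherin (CDH1) was at 80.2 ± 12.8 FPKM in KDM6A morulae, 49.5 ± 5.12 FPKM in control morulae and 15.9 ± 3.12 FPKM in 8-cell embryos. TBX3, a T-box transcription factor, rose as well. Among 10 tested pluripotency partners, 6 rose and 1 fell in KDM6A morulae and 5 rose and 2 fell in control morulae. Of all genes 41.1% rose and 25.6% fell in KDM6A morulae, and 42.7% rose and 27.1% fell in control morulae. POU5F1 rose to 106 ± 55.2 FPKM in KDM6A morulae and 146 ± 21.6 FPKM in control morulae, against 8.40 ± 2.18 FPKM in 8-cell embryos. Means of NANOG and DPPA3 went the other way. NANOG was at 53.6 ± 18.8 FPKM in KDM6A morulae, 42.4 ± 2.10 FPKM in control morulae and 86.8 ± 24.9 FPKM in 8-cell embryos. DPPA3 was at 418 ± 27.7 FPKM in KDM6A morulae, 520 ± 133 FPKM in control morulae and 1618 ± 381 FPKM in 8-cell embryos.

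KLF4, KLF6 and KLF10 are known as immediate early genes, switched on within minutes of a stimulus in cultured cells, and other genes of that class were counted. Against 8-cell embryos 4 of 11 rose and 2 fell in KDM6A morulae, beside 41.1% and 25.6% of all genes. In control morulae 2 rose and 4 fell, beside 42.7% and 27.1%. FOS rose, at 9.40 ± 4.6 FPKM in KDM6A morulae, 9.71 ± 2.78 FPKM in control morulae and 0.63 ± 0.546 FPKM in 8-cell embryos, and MYC fell, at 4.98 ± 1.82 FPKM in KDM6A morulae, 4.68 ± 2.10 FPKM in control morulae and 17.05 ± 4.48 FPKM in 8-cell embryos. Between KDM6A and control morulae none of the 12 tested was called, although 10 had a fold change above 0 and the median was 0.50. The anti-apoptotic IER3 stood at 107 ± 38.7 FPKM in KDM6A morulae and 49.9 ± 15.6 FPKM in control morulae (limma adjusted p = 0.201), and ZFP36, which destabilises short-lived mRNAs, at 6.90 ± 1.26 FPKM in KDM6A morulae and 3.32 ± 0.956 FPKM in control morulae (0.227).

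No gene of the other lists was called between KDM6A and control morulae either. CDKN1A, a cell cycle inhibitor induced by KLF4 and KLF6 in human cells, was at 3.63 ± 1.05 FPKM in KDM6A morulae and 1.15 ± 0.448 FPKM in control morulae (limma adjusted p = 0.158). SAP30, a SIN3 complex subunit, was at 3.82 ± 2.34 FPKM in KDM6A morulae and 8.13 ± 1.53 FPKM in control morulae (0.281), and IL6ST, the signalling receptor of the LIF pathway that raises KLF4 in mouse stem cells, at 5.10 ± 1.34 FPKM in KDM6A morulae and 10.1 ± 3.1 FPKM in control morulae (0.283). Median log2 fold changes of these lists were 0.34 for the KLF and SP relatives, 0.022 for upstream signals, -0.026 for cofactors and turnover, 0.12 for targets and -0.099 for pluripotency partners, beside -0.012 for all genes.

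The genes whose pattern was most like that of a member were named for KLF3, KLF5 and KLF6, which varied most over the 9 libraries, as a description. By Pearson correlation of log2(FPKM + 1) over the 9 libraries, which fall apart by stage, KLF3 was most like PRPF38B (0.997), RSBN1 (0.997) and PIAS1 (0.997). KLF5 was most like SRCAP (0.995), NOP53 (0.994) and HDAC6 (0.993), and KLF6 most like HSP90AA1 (0.986), ITCH (0.985) and NDUFA2 (0.979). Such likeness was common, since 1027, 1502 and 901 of 6410 genes exceeded 0.9 for KLF3, KLF5 and KLF6. SRCAP, for example, was at 7.78 FPKM in KDM6A morulae, 10.5 FPKM in control morulae and 3.75 FPKM in 8-cell embryos on average.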

How the data were processed

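The deposited files give FPKM per gene and library, per the file headers, with Ensembl gene identifiers. The submitters' processing notes name RSEM 1.2.12, Bowtie2 2.2.5, HISAT 0.1.6, StringTie 1.0.4, bcl2fastq 2.16 and the UMD3.1 build. Which tool made the FPKM, with what filters, and how reads shared between related genes were treated are points not given in the sources used here. Low values showed no steps of whole reads: over 36 library pairs the most common log2 ratio bin of low genes held 4.30% to 9.01% of them. Summed FPKM ran from 820346 to 989916 per library, and no pair of libraries was identical.

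Files were joined by identifier, without rows that lack an Ensembl identifier, and a symbol missing in one set of files was taken from the other. Rows without such an identifier were found only for control morula replicate 1, 3038 of 19751. Comparisons used limma 3.58.1 (R 4.3.3) on log2(FPKM + 1) with a trended prior, on the 6 libraries compared and on genes reaching 1 FPKM in 3 or more of these. A gene that passes this filter only through 1 group can be called in 1 direction only. P-values were adjusted by Benjamini-Hochberg over all genes, with a threshold of 0.05. Python 3.11.15, pandas 2.3.3, numpy 2.4.6, scipy 1.17.1 and matplotlib 3.10.9 were used for the rest. The fits were tested on simulated data with normal noise. Shifts were planted only in genes of 5 FPKM or more and were larger than those of the members between KDM6A and control morulae. That test therefore does not cover low members or such small changes. Members and lists were chosen with earlier results of these data known. All members with a row are named, and up to 4 genes of a list per comparison, by smallest p. NANOG, DPPA3 and the keratins of the trophectoderm list were added to show genes without the same change. Nothing in the labels ties replicates to separate oocyte batches, so the p-values reflect only how these particular libraries differ, which may be technical. Alternatives were a pseudocount of 0.1, no filter, a filter of 5 FPKM, 3 other scalings, all 9 libraries in the fit, a block for the replicate number, and leaving out each library.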

Additional observations from a re-analysis of the deposited data

How the results depend on the processing

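Each of the 6 tested members was refitted under up to 14 alternatives per comparison. Between KDM6A and control morulae, 0 of 6 members were called under all of them. Against 8-cell embryos, 5 were called except that a filter of 5 FPKM left 3 in both comparisons, since KLF6 and KLF11 were then not tested, and that leaving out a library gave 4 to 5 in control morulae and 5 in KDM6A morulae. The sign of KLF10, never called, turned for KDM6A over control morulae on the TPM scale (0.018), and ranged from -0.28 to 0.16 with a library left out. For KDM6A morulae over 8-cell embryos it was -0.084 on the TPM scale, -0.12 after quantile normalization and -0.23 after median-of-ratios scaling, and from -0.20 to 0.23 with a library left out. For control morulae over 8-cell embryos it was -0.10, -0.082 and -0.20 under these scalings, and from -0.065 to 0.22 with a library left out. The cause was not tested. The log2 difference of the KLF4 to KLF5 ratio between KDM6A and control morulae ranged from 0.13 to 0.20 with a library left out, a check added after seeing the data.

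Over all genes, 16 were called between KDM6A and control morulae, 0 with no filter, 25 on the TPM scale, 28 after quantile normalization, 10 with all 9 libraries in the fit, and 1 to 725 with a library left out (725 without KDM6A replicate 1). With the replicate number as a block 1 was called. Same-numbered KDM6A and control libraries deviated with correlations of -0.21, -0.22 and 0.14, and differently numbered ones with -0.19 to 0.29. With 3 libraries per group these values cannot decide whether the numbers pair them. The block changed no call of a KLF member. Unknown depth limits KLF9 and KLF16, whose values near 0 were not tested.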
